A study of Mus musculus with 6 samples.

Results

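The 39 genes described here encode proteins that carry a cell through mitosis: the cyclin-CDK engine and its transcription factor, mitotic kinases, the chromosomal passenger complex, the spindle checkpoint and anaphase-promoting complex, kinetochore proteins, spindle motors and the machinery of cytokinesis. They were chosen as a list of genes by function, with earlier results of these data known. Of the 39, 38 were represented by a probe among the 21058 genes and transcripts tested. No probe was matched to Prc1, a protein that bundles microtubules of the central spindle. RNA of 6 mouse livers was hybridised to one-colour Agilent arrays, 1 array per sample. Of the samples, 3 came from control wild type mice and 3 from mice lacking small Maf transcription factors in the liver (a liver-specific small Maf knockout, called sMaf CKO), all aged 5 weeks and on a mixed background of 129Sv/J, C57BL/6J and ICR. The labels give neither the Maf genes deleted nor the Cre driver, the sex or the litter. The samples are described as independent RNA samples, so the spread between arrays holds animal and technical variation together.

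A cell enters mitosis when CDK1 bound to a B-type cyclin becomes active, and it leaves mitosis when the anaphase-promoting complex has marked the cyclins and securin for destruction. RNAs of these genes are made mainly in the G2 and M phases, under the MuvB complexes and FOXM1, so in bulk tissue their level follows how many cells are dividing. Hepatocytes of adult mice rarely divide, while livers of young mice still hold some dividing hepatocytes and other cells. In bulk liver RNA a change in the number of dividing cells and a change in RNA per cell cannot be told apart.

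A level is given here as log2 of the processed probe signal minus the 75th percentile of that array, so 0 is the signal at that percentile and a step of 1 is a doubling. Triplets of levels are listed by replicate number, the array of replicate 1 first. Levels of different genes come from different probes and give no order of expression between genes; probe signal was ranked across members only to choose the promoters shown. The 75th percentile signal lay between 483.4 and 609.3 on the control arrays and between 484.4 and 960.5 on the sMaf CKO arrays. The share of probes well above background on an array was 58.0% to 73.6%. All 38 measured members passed the filter on dim probes (well above background on at least 3 arrays), and 32 of them were above background on all 6 arrays. The other 6 were Cdc25c and Ttk, not above background on control arrays 1 and 3, and Ndc80, Kif11, Kif2c and Anln, not above background on control array 3; Ttk and Anln were also not above it on sMaf CKO array 3. Mafg, a small Maf gene, was at 1.88, 1.87 and 2.23 in the controls and at -2.97, -4.36 and -0.76 in sMaf CKO, so its level on control array 2 lay with the other controls, as its label has it (log2 difference -4.69, SE 0.79, limma adjusted p = 0.0533). Maff and Mafk, the other small Maf genes, differed by 0.15 and 0.21 (limma adjusted p = 0.911 and 0.759). For both of these genes control array 2 was the lowest of the 6 arrays. Maff was at 0.98, -0.46 and 1.24 in the controls and 0.96, -0.01 and 1.25 in sMaf CKO. Mafk was at -1.98, -2.62 and -1.60 in the controls and -2.01, -1.69 and -1.89 in sMaf CKO. Albumin, a defining hepatocyte product, was above background on all 6 arrays, at 8.84 or higher.

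Mitotic RNAs were high in the 3 sMaf CKO livers and in 1 control liver, and low in the other 2 control livers. Taken as the median over members of the difference from the control mean, the arrays stood at -0.44, 1.35 and -0.86 for the controls and at 1.70, 1.65 and 1.39 for sMaf CKO. Control array 2 thus lay beside the sMaf CKO arrays and apart from both other controls. The level on control array 2 exceeded both other controls in 37 of the 38 members (30.1% of all genes did so), and by over 1 on the log2 scale in 29 of them, or 76.3% (2.35% of all genes). It was nearer to the sMaf CKO mean than to the mean of control arrays 1 and 3 in 38 of 38 members. This count includes Bub1, where control array 2 lay below the mean of the other controls. It also includes Cks2, where control array 2 was only 0.26 above that mean and 0.07 above the sMaf CKO mean. Control array 2 was above the mean of the other controls by a median of 2.03, or 4.09-fold, with a range from -0.34 for Bub1 to 3.19 for Cenpf. The sMaf CKO mean exceeded control array 2 by a median of 0.36, or 1.28-fold, being higher in 27 members and lower in 11. Control array 3 was the lowest of the 6 arrays in 28 members and control array 1 in 8. No share over all genes is given for these counts or for nearness to the sMaf CKO mean.

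**Figure D1:**
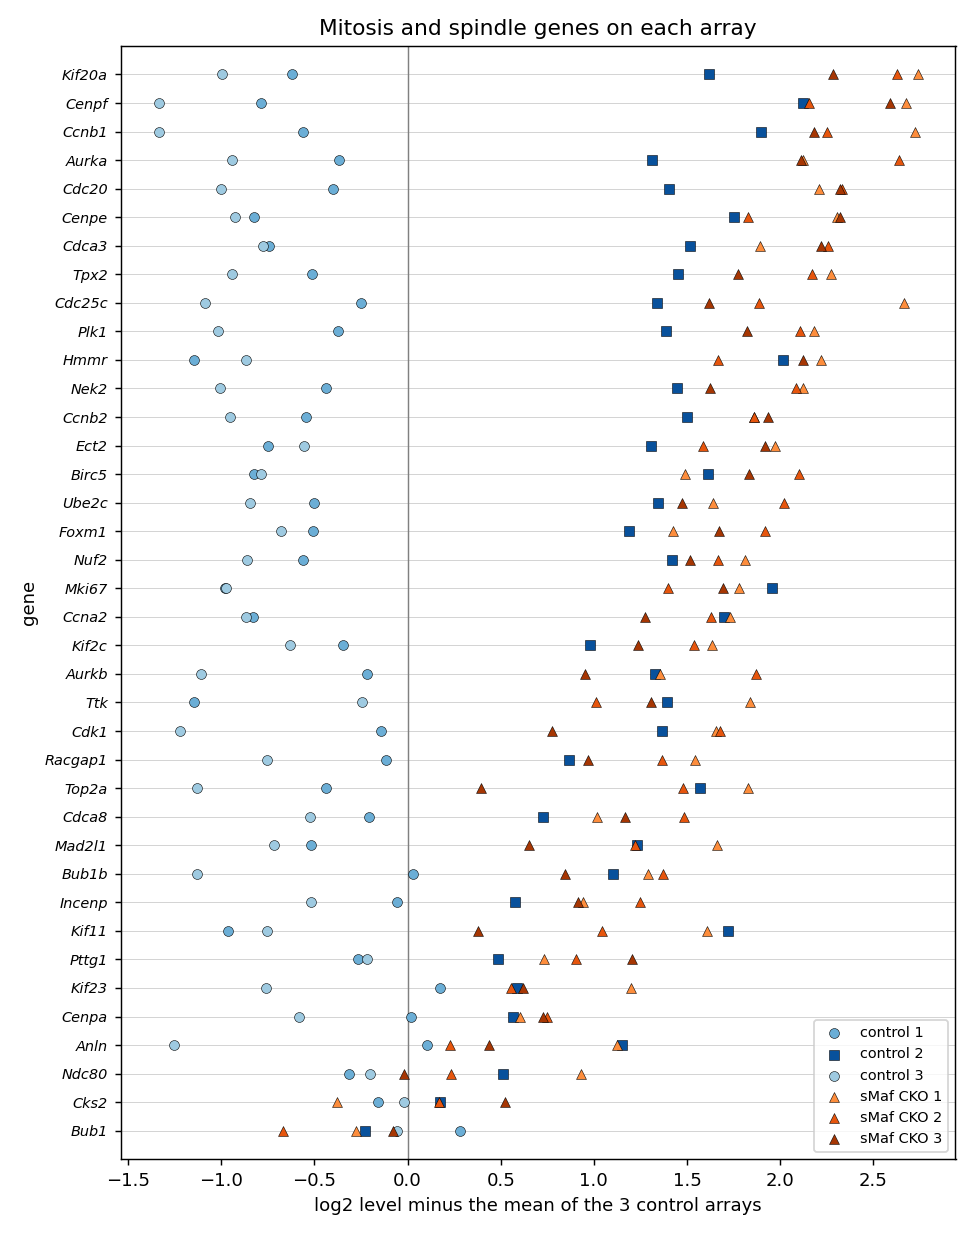
Each row is a mitosis or spindle gene and each point an array, placed by its log2 level minus the mean of the 3 control arrays. Circles are control arrays 1 and 3, squares control array 2 and triangles the sMaf CKO arrays. The square lies below all 3 triangles in 22 of 38 rows, within their range in 13 and above them in 3. Of 21012 genes with a value on every array, the same counts are 4976, 10588 and 5448. Cks2 and Bub1 at the bottom show little separation.

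Because of that array, genotype was compared with and without it. Over all 6 arrays, 0 of 38 members passed an adjusted p of 0.05 in the limma fit, where 0.541% of all genes were called in either direction and 0.385% as higher in sMaf CKO. At an unadjusted p under 0.05, 25 members were higher in sMaf CKO and 0 lower, beside 8.71% of all genes that were higher. The fitted difference was above 0 in 37 of 38 members (45.3% of all genes), Bub1 being the exception. Its median over members was 1.58, or 3.0-fold, against -0.05 over all genes, and it ranged from -0.34 for Bub1 to 2.55 for Kif20a. All 3 sMaf CKO arrays lay above all 3 control arrays in 22 members (11.4% of all genes), of which 20 were above background on all arrays. With normexp background correction in place of the processed signal, 0 members passed and the differences of 12 members were smaller by more than 1.5 times: 1.57 for Cenpf, 0.82 for Top2a, 0.78 for Aurkb, 0.70 for Kif2c, 0.65 for Bub1b, 0.64 for Cdc25c, 0.48 for Kif23, 0.41 for Kif11, 0.25 for Ndc80, 0.24 for Ttk, 0.15 for Anln and 0.04 for Cks2.

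Without control array 2, 21 of the 38 members passed the adjusted threshold, all of them higher in sMaf CKO, beside 0.698% of all genes. Of these, 19 were above background on all 6 arrays, and their differences ran from 2.27 for Foxm1 (4.81-fold) to 3.54 for Cenpf (11.6-fold). The other 2 were Kif2c, not above background on control array 3, and Cdc25c, not above background on either remaining control array, so that its control level there is only a bound and its call compares sMaf CKO with background. The adjusted p of the 21 lay between 0.0106 and 0.0462. The median over all 38 members was then 2.32, or 5.00-fold, and 35 members were higher at an unadjusted p under 0.05 (8.72% of all genes). Control arrays 1 and 3 lay below all 3 sMaf CKO arrays in 36 members, or 94.7%, where 16.5% of all genes did so. Control array 2 was singled out with its values for these genes known, so these counts describe the other 5 arrays and are not an independent test. The same limit holds wherever a gene is said below to pass or not to pass without that array. Leaving out any 1 of the other 5 arrays gave 0 members past the threshold.

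**Figure D2:**
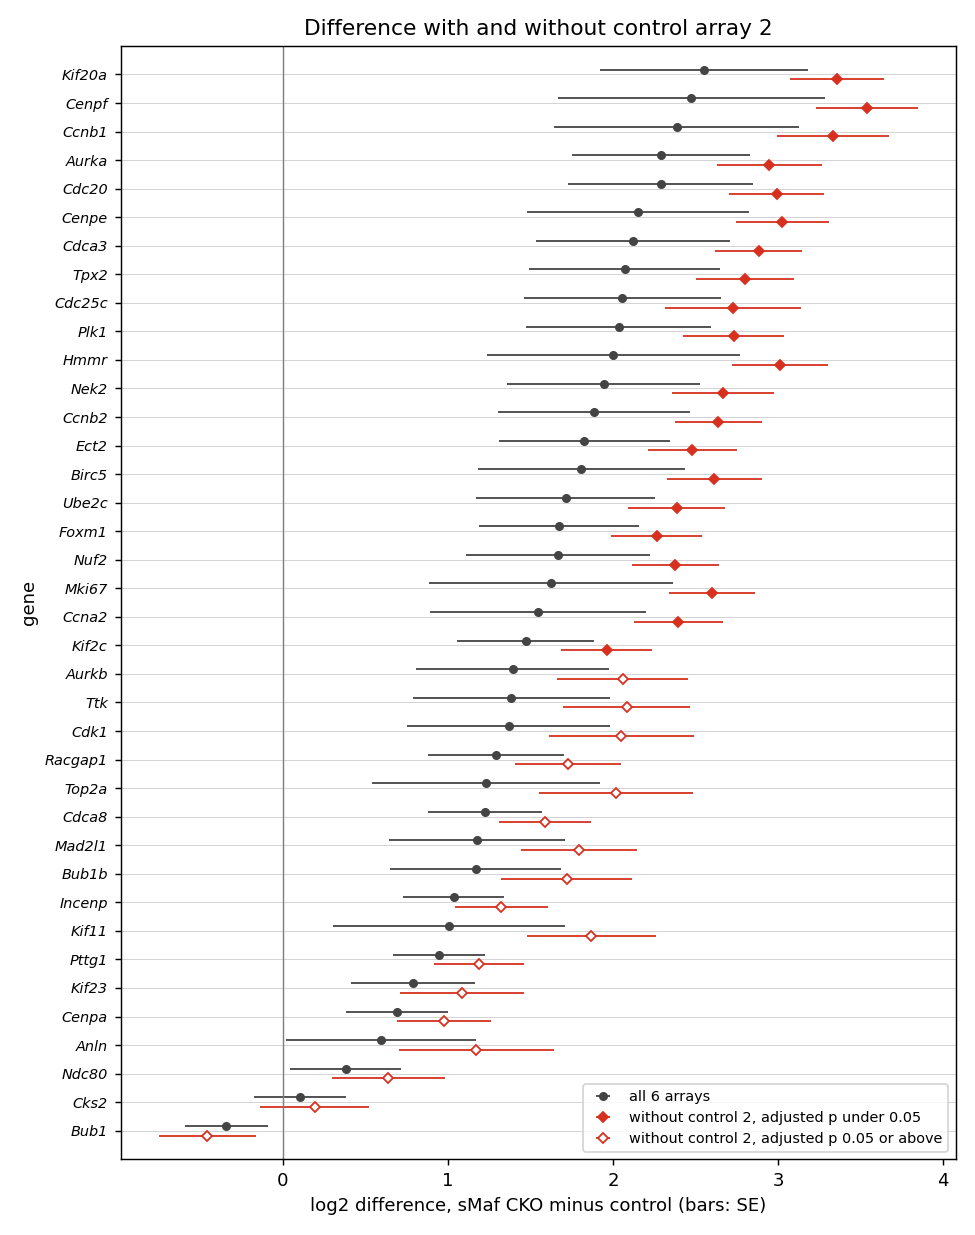
For each gene the log2 difference, sMaf CKO minus control, is drawn with its standard error from the fit of all 6 arrays (grey circles) and from the fit without control array 2 (red diamonds, filled where the adjusted p was under 0.05). Every grey point has an adjusted p above 0.05, and 21 red points are filled, Cdc25c among them with both remaining controls at background. The red bars are shorter than the grey ones for most genes. The grey bars include the gap of control array 2, which was left out with that gap known, so this is not a separate observation.

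The spread of the members among the control arrays includes the gap of control array 2 and is not a separate observation. The standard deviation over the 3 control arrays had a median of 1.24 over members and 0.28 over all genes, and 28 of 38 members lay in the top 5% of all genes. Among the 3 sMaf CKO arrays it had a median of 0.28 over members and 0.33 over all genes, with 0 members in the top 5%. It ranged from 0.17 (Cks2) to 1.86 (Cenpf) in the controls and from 0.04 (Ccnb2) to 0.75 (Top2a) in sMaf CKO. Over the control arrays its median was 0.94 in 77 other mitotic genes and 0.92 in 10 erythroid markers, lists described below.

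**Figure D3:**
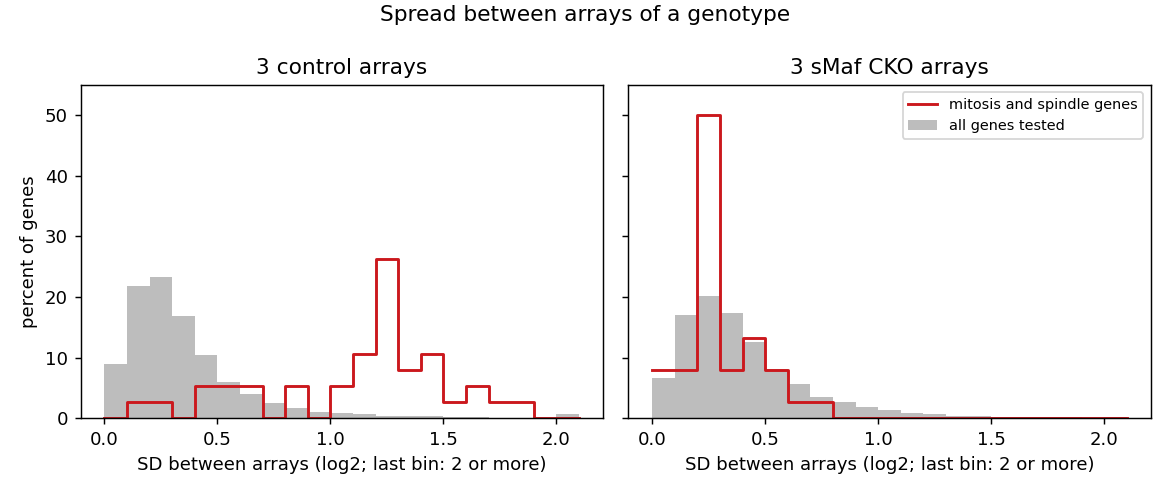
Histograms of the standard deviation of log2 level over the 3 control arrays (left) and the 3 sMaf CKO arrays (right), in percent of genes per bin of 0.1, with the 38 members as a red line and all genes tested in grey. The red line peaks between 1.2 and 1.3 in the controls and between 0.2 and 0.3 in sMaf CKO.

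Many promoters of G2 and M phase genes carry a cell cycle genes homology region, a short element bound by MuvB complexes whose core is TTTGAA, and CCAAT boxes bound by NF-Y. Promoter windows of 300 bases, from 250 before to 50 after the start, were taken from RefSeq on GRCm38.p6 for the 32 members that had one (34 windows), and searched on both strands for 3 motifs. The core TTTGAA, or its reverse complement, was found in 23 of the 32 members (71.9%) and in 20.2% of 27025 genes with a window, and within 50 bases of the start in 21 members (65.6%) and in 5.72% of genes. CCAAT was found in 25 members (78.1%) and in 41.1% of genes, and within 50 bases of the start in 18 members (56.2%) and 15.6% of genes. TTCGAA, the other common form of the element, was found in 3 members (9.38%) and in 1.80% of genes. In 1 window matches of 2 different motifs shared bases, and overlaps between matches of the same motif were not counted. A match is a description of these letters and was not tested as a binding site. The 3 windows shown are those of the members with the highest mean signal among those holding TTTGAA, printed 5′ to 3′ along the gene with both motifs, on either strand, in capitals: Ccnb2 at chr9:70421505-70421804 on the minus strand, Cdc20 at chr4:118437294-118437593 on the minus strand and Cdca3 at chr6:124829926-124830225 on the plus strand.
Ccnb2: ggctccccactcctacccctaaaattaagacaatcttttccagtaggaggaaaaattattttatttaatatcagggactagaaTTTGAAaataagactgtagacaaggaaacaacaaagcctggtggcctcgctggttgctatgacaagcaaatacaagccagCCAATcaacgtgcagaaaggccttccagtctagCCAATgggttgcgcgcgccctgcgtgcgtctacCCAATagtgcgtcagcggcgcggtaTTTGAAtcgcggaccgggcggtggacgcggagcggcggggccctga
Cdc20: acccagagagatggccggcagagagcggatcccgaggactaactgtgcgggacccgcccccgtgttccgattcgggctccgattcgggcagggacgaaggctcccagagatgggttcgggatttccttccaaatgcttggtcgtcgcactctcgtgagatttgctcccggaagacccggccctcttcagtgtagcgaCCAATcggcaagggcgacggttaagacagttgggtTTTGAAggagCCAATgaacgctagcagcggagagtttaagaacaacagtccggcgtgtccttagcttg
Cdca3: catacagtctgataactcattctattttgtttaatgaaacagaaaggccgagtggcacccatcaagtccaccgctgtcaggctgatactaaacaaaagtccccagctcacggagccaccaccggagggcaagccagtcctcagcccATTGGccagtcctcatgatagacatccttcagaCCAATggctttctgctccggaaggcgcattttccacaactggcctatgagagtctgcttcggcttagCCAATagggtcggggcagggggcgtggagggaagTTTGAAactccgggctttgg
Counted from the gene's first base as 1, the first base of TTTGAA lay at -167 and 5 in Ccnb2, at -18 in Cdc20 and at 31 in Cdca3. Each window also held CCAAT upstream of the TTTGAA nearest the start, at -87, -54 and -21 in Ccnb2, at -53 in Cdc20 and at -104, -71 and -4 in Cdca3. Of the tested members, the 22 with TTTGAA in a tested window had differences from 0.38 to 2.47 (median 1.43) and the 9 without it from -0.34 to 2.39 (median 1.67), so the ranges overlapped almost wholly.

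Within the cyclin-CDK engine, 7 of 7 members had a fitted difference above 0 (median 1.67, and 2.40 without control array 2), and 5 passed the threshold without that array: Ccna2, Ccnb1, Ccnb2, Foxm1 and Cdc25c, the last against controls at background. Foxm1, the forkhead factor that drives transcription of G2 and M phase genes, was at -2.71, -1.02 and -2.89 in the controls and -0.78, -0.28 and -0.53 in sMaf CKO. All 3 sMaf CKO arrays were above every control, with control array 2 closest to them; the log2 difference was 1.67 (SE 0.48) with an adjusted p of 0.166, and 2.27 without control array 2. Cdc25c, the phosphatase that activates CDK1, was at -6.19, -4.60 and -7.03 in the controls and -3.28, -4.05 and -4.32 in sMaf CKO. Its probe was above background on control array 2 and on all 3 sMaf CKO arrays, so its values on control arrays 1 and 3 have no firm size. The fitted difference of 2.06 (SE 0.59, adjusted p = 0.166) was 0.64 with normexp. Ccnb1 and Ccnb2, the B-type cyclins that partner CDK1 in mitosis, differed by 2.39 (SE 0.74) and 1.89 (SE 0.58), or 3.33 and 2.64 without control array 2 (10.1-fold and 6.22-fold). Ccna2, cyclin A2, which acts from S phase to early mitosis, differed by 1.54 (SE 0.65), or 2.40 without control array 2. Cdk1 itself differed by 1.37 (SE 0.61), its control array 2 at -0.01 lying between sMaf CKO array 3 at -0.60 and array 1 at 0.28. Cks2, a small subunit bound by CDK1, stood apart from the other members of the engine. Its levels were 3.16, 3.49 and 3.30 in the controls and 2.94, 3.49 and 3.84 in sMaf CKO. The groups overlapped throughout, and the difference was 0.11 (SE 0.28) with a 95% interval from -0.54 to 0.75 and an adjusted p of 0.878.

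The 3 mitotic kinases and Tpx2, an activator, had differences from 1.94 to 2.29 (median 2.05), and 4 of 4 passed without control array 2 (median 2.77). Aurka, the Aurora A kinase of centrosomes and spindle poles, had the smallest p of all members. It was at -0.68, 1.0 and -1.26 in the controls and 1.81, 2.32 and 1.80 in sMaf CKO. Each sMaf CKO array was above each control array, and control array 2 was higher than the other controls by more than 1.6; the difference of 2.29 (SE 0.54), or 4.89-fold, had an adjusted p of 0.114, and it was 2.95 (7.71-fold) without control array 2. Plk1, a kinase of centrosome maturation and mitotic progression, was at -1.12, 0.64 and -1.77 in the controls and 1.43, 1.35 and 1.07 in sMaf CKO (difference 2.04, SE 0.56, adjusted p = 0.154). Tpx2, which activates Aurora A on spindle microtubules, was at -3.02, -1.05 and -3.45 in the controls and -0.23, -0.33 and -0.73 in sMaf CKO (difference 2.07, SE 0.58, adjusted p = 0.157). For both genes the order of the controls was the same, array 2 the highest and array 3 the lowest, and the groups did not overlap. Nek2, a kinase of centrosome separation, differed by 1.94 (SE 0.58), and by 2.67 without control array 2.

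The 4 subunits of the chromosomal passenger complex, which corrects faulty attachments of chromosomes to the spindle, had differences of 1.81 (SE 0.63) for Birc5 (survivin), 1.39 (SE 0.58) for Aurkb (the kinase), 1.22 (SE 0.35) for Cdca8 (borealin) and 1.04 (SE 0.31) for Incenp (the scaffold). Cdca8 was at 0.58, 1.52 and 0.27 in the controls and 1.81, 2.28 and 1.96 in sMaf CKO. The groups did not overlap, and the gap between control array 2 and the other controls was narrower than in the kinases (adjusted p = 0.16). Only Birc5 passed the threshold without control array 2, at 2.61 or 6.12-fold.

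In the spindle checkpoint and anaphase-promoting complex group, 7 of 8 members were above 0 (median 1.28, and 1.94 without control array 2), and Cdc20, Cdca3 and Ube2c passed without that array. Cdc20, the activator of the anaphase-promoting complex, was at 0.49, 2.30 and -0.11 in the controls and 3.1, 3.22 and 3.21 in sMaf CKO. The 3 sMaf CKO arrays were within 0.13 of each other and above all controls, while the controls spanned more than 2 on the log2 scale; the difference was 2.29 (SE 0.56), or 4.89-fold, with an adjusted p of 0.123. Cdca3, a factor of mitotic entry that is degraded through the complex, was at -0.12, 2.14 and -0.16 in the controls and 2.51, 2.88 and 2.84 in sMaf CKO. Control arrays 1 and 3 were nearly equal and control array 2 lay closer to sMaf CKO (difference 2.12, SE 0.59, adjusted p = 0.155, and 2.88 without control array 2). Ube2c, the ubiquitin-conjugating enzyme of the complex, differed by 1.71 (SE 0.54), or 2.39 without control array 2. Pttg1, securin, which inhibits separase, was at 1.88, 2.63 and 1.93 in the controls and 2.88, 3.05 and 3.35 in sMaf CKO. Again only control array 2 came near the sMaf CKO arrays, and the groups did not overlap (difference 0.95, SE 0.28, adjusted p = 0.17).

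Bub1, a checkpoint kinase, was the one member with a negative difference, and its probes disagreed. The brighter probe, which is the one used, was at -0.12, -0.63 and -0.46 in the controls and -0.68, -1.07 and -0.48 in sMaf CKO. The groups overlapped (difference -0.34, SE 0.25, 95% interval -0.93 to 0.24, adjusted p = 0.528). The other probe, designed to another transcript accession of the gene, was at -4.79, -2.37 and -5.53 on the control arrays and -2.25, -2.34 and -2.45 on the sMaf CKO arrays. On that probe control array 2 lay within the range of the sMaf CKO arrays (difference 1.89). The direction for Bub1 is therefore uncertain. Across members, 13 further probes of 12 genes were kept; 2 had the opposite sign to the probe used, those of Bub1 and Cks2, and in 13 of 13 control array 2 exceeded the mean of the other controls. The checkpoint genes Bub1b, Mad2l1 and Ttk differed by 1.17 (SE 0.52), 1.18 (SE 0.53) and 1.39 (SE 0.60) and passed in neither fit; the Ttk probe was above background on 1 control array and 2 sMaf CKO arrays.

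For the 5 centromere and kinetochore genes the differences ranged from 0.38 to 2.47 (median 1.67), and Cenpe, Cenpf and Nuf2 passed without control array 2. Cenpf, a large kinetochore protein, had the widest control spread of all members (SD 1.86, n = 3) and the largest difference without control array 2; over all arrays it differed by 2.47 (SE 0.81), or 1.57 with normexp. Cenpe, a kinesin of kinetochores, differed by 2.15 (SE 0.67), or 3.03 without control array 2. The NDC80 complex, which holds microtubules at the kinetochore, was represented by both Nuf2 and Ndc80. Nuf2 differed by 1.67 (SE 0.56), while Ndc80 was at -4.47, -3.64 and -4.36 in the controls and -3.23, -3.92 and -4.17 in sMaf CKO. The groups overlapped for Ndc80, which differed by 0.38 (SE 0.34) with a 95% interval from -0.40 to 1.17 (adjusted p = 0.599). Cenpa, the histone H3 variant of centromeres, differed by 0.69 (SE 0.31).

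Of the 3 spindle motor and spindle-binding genes, Kif2c and Hmmr passed without control array 2 and Kif11 (Eg5, which pushes spindle poles apart) did not. Kif2c, a kinesin that depolymerises microtubules, was at -4.50, -3.17 and -4.79 in the controls and -2.52, -2.62 and -2.92 in sMaf CKO. Its probe was not above background on control array 3. The groups did not overlap, and the difference was 1.47 (SE 0.42) with an adjusted p of 0.16, or 0.70 with normexp. Hmmr, a hyaluronan receptor that also binds spindle microtubules, differed by 2.0 (SE 0.77), or 3.01 without control array 2. For Kif11 control array 2 was the highest of the 6 arrays, at -2.97 against -3.08, -3.65 and -4.31 in sMaf CKO, and the difference was 1.01 (SE 0.70). Mki67, the chromosome-surface protein used as a proliferation marker, also had its highest level on control array 2, at 2.30, with the sMaf CKO arrays at 2.12, 1.74 and 2.04, while control arrays 1 and 3 were at -0.64 and -0.63. Its difference was 1.62 (SE 0.74) over all arrays and 2.60 without control array 2. Top2a, which untangles replicated chromosomes, differed by 1.23 (SE 0.69) and passed in neither fit.

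At the end of mitosis, the 5 measured genes of the spindle midzone and cytokinesis had differences from 0.60 to 2.55 (median 1.29), and Kif20a and Ect2 passed without control array 2. Kif20a, a kinesin of the central spindle, had the largest difference of all members. It was at -1.60, 0.64 and -1.98 in the controls and 1.76, 1.65 and 1.30 in sMaf CKO. The groups did not overlap, and the difference of 2.55 (SE 0.63), or 5.86-fold, had an adjusted p of 0.125; without control array 2 it was 3.36, or 10.3-fold. Ect2, the exchange factor that activates RhoA at the cleavage site, was at -2.40, -0.34 and -2.20 in the controls and 0.33, -0.06 and 0.28 in sMaf CKO (difference 1.83, SE 0.52, adjusted p = 0.162). Racgap1 and Kif23, which form centralspindlin, differed by 1.29 (SE 0.41) and 0.79 (SE 0.38), and Anln, the actin-binding anillin, by 0.60 (SE 0.57).

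**Figure D4:**
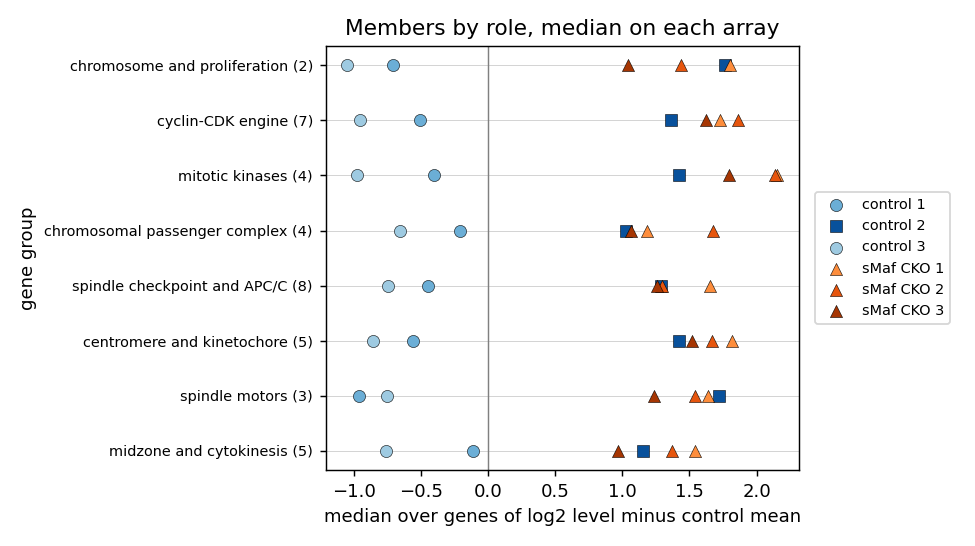
For each role the median over its genes of the log2 level minus the control mean is drawn for each array, with the number of genes in brackets. In every role control arrays 1 and 3 lie below 0 and control array 2 lies above 1, among or just below the sMaf CKO arrays, or just above them for the spindle motors.

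Other cell cycle lists were read from the same fit. Over all 21058 genes tested, 45.3% had a difference above 0. At an unadjusted p under 0.05 in limma, 1835 of them (8.71%) were higher in sMaf CKO and 1706 lower. Of 80 other mitotic genes 77 were tested, 71 were above 0 and the median difference was 1.13 (1.47 without control array 2). In that list 1 gene passed over all 6 arrays, Psrc1, a microtubule-binding protein, which was at -3.57, -1.90 and -3.70 on the control arrays and 1.52, 0.32 and 0.83 on the sMaf CKO arrays (difference 3.94, SE 0.53, adjusted p = 0.0382), and its control array 2 lay below every sMaf CKO array by more than 2. Without control array 2, 24 of the 77 passed, all higher. Of 50 DNA replication genes 49 were tested, 40 were above 0 with a median of 0.38, and 0 passed in limma (6 higher and 1 lower at an unadjusted p under 0.05). The smallest p values in that list belonged to Mcm10, which loads replication factors (-2.35, adjusted p = 0.0997), and to E2f1, a transcription factor of S phase genes (0.93, adjusted p = 0.136). Among the 10 tested of 12 D cyclins and CDK inhibitors 1 passed: Cdkn1a, the inhibitor p21, was at -2.78, -2.17 and -2.55 in the controls and 1.84, 1.19 and 1.28 in sMaf CKO. The groups were far apart, with control array 2 among the controls, and the difference was 3.94 (SE 0.27, 15.3-fold, adjusted p = 0.00857). The 18 MuvB, pocket protein and E2F regulators had a median of -0.03 and 0 passed in limma (1 higher and 3 lower at an unadjusted p under 0.05), with Rbl2, a pocket protein, at -1.02 (adjusted p = 0.142) and Tfdp2, a partner of E2F factors, at -0.74 (adjusted p = 0.185). The 15 core subunits of the anaphase-promoting complex had a median of 0.06 and 0 passed (1 higher and 0 lower at an unadjusted p under 0.05), with Anapc4 at 0.56 (adjusted p = 0.263) and Anapc13 at -0.39 (adjusted p = 0.472).

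Markers of other cell types were read on the same arrays. Their counts at an unadjusted p under 0.05 in limma stand beside 1835 higher and 1706 lower of all 21058 genes tested. Of 12 erythroid markers 10 were tested (no probe was matched to Hbb-b1 or Ahsp), and control array 2 was above both other controls in 9 and by over 1 in 5. The array medians of their difference from the control mean were -0.70, 1.03 and -0.21 in the controls and 0.53, 0.16 and 0.33 in sMaf CKO, and their summed signal relative to the 75th percentile was 229.2 to 507.7 in the controls and 309.7 to 598.2 in sMaf CKO. Slc4a1, the red cell anion exchanger, was at -2.21, 1.67 and -1.56 in the controls and 0.64, -0.07 and -0.42 in sMaf CKO. Control array 2 was thus the highest array for Slc4a1, and likewise for Rhd, a blood group protein, at -0.18 against -5.49 and -6.69 in the other controls and -3.38, -2.52 and -3.59 in sMaf CKO. The Rhd probe was above background on only 2 of the 3 control arrays, so its gap between controls has no firm size. Klf1, an erythroid transcription factor, was highest on control array 2 too, at -0.54 against -1.89 and -1.37 in the other controls, and at -3.36, -2.30 and -2.82 in sMaf CKO (limma adjusted p = 0.143). Of 8 neutrophil markers 6 were tested (no probe was matched to Ly6g, and Elane was not above background on any array). Their summed signal was 3.54 to 6.70 in the controls and 6.01 to 9.09 in sMaf CKO. The median difference was 0.31 (0 passed in limma, 1 higher and 0 lower at an unadjusted p under 0.05). Control array 2 was above both other controls in 3 of these 6, and by over 1 only in Mpo, made by neutrophil precursors. Mpo was at -3.84, -0.34 and -3.09 in the controls and -3.32, -3.67 and -2.04 in sMaf CKO. The 8 Kupffer cell markers were all above 0 (median 0.61, 0 passed in limma, 3 higher at an unadjusted p under 0.05), with a summed signal of 78.1 to 125.6 in the controls, where array 2 was at 121.0, and 181.8 to 408.3 in sMaf CKO. The 9 hepatocyte markers tested of 12 had a median of -0.45 (0 passed in limma, 3 lower at an unadjusted p under 0.05). Their median depended on scaling: it was -0.20 with quantile normalization and -0.12 with spike-in scaling, where that of all genes was 0.27. Their signal summed to 1456 to 1849 in the controls and 931.7 to 1539 in sMaf CKO. The 8 stellate cell markers were all above 0 (median 0.45, 3 higher at an unadjusted p under 0.05). Medians were 0.34 for 7 monocyte and macrophage markers, 0.15 for 11 lymphocyte markers, -0.17 for 8 endothelial markers and 0.24 for 8 cholangiocyte markers, and no gene of these 5 lists passed in limma. The part of these cells in the members' levels was not tested.

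**Figure D5:**
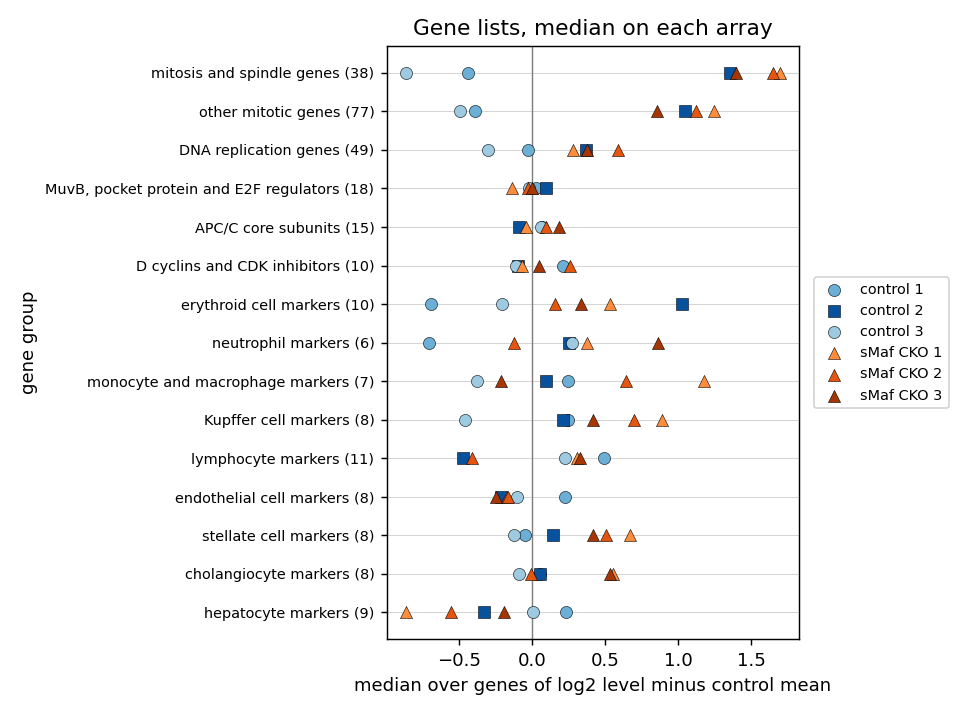
For each gene list the median over its tested genes of the log2 level minus the control mean is drawn for each array, with the number of genes in brackets. Control array 2 (square) lies far to the right of the other controls for the mitotic lists and for erythroid markers, and near them for the anaphase-promoting complex core and for D cyclins and CDK inhibitors.

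Replicates 1 and 2 of both genotypes shared 1 slide and replicate 3 of both was on the other, so slide and genotype were not confounded. The median member difference was 1.29 within the first slide, which holds control array 2, and 2.23 between the single arrays of each genotype on the second. With slide as a block, 0 members passed, where 0.992% of all genes were called as higher.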

How the data were processed

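Total RNA of liver, 500 ng per sample, was amplified and labelled with Cy3, per the labels' protocols. Per the file headers, the authors read spot intensities with Feature Extraction 10.7.3.1 from Agilent, and the deposited processed intensity is background-subtracted and spatially detrended within an array. The deposited value table holds log2 values of the same arrays; against the scanner values (41121 probes, r = 1) its columns are the scaled log2 intensities used here, centred per probe on the median of the arrays. Column medians are 0.046, -0.02 and 0.083 for the controls, then -0.104, -0.105 and 0.092 for sMaf CKO. It served as an alternative.

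Control and outlier spots were left out and spots of a probe averaged. From log2 of the processed intensity each array's 75th percentile was subtracted. Probes flagged as well above background on 3 or more of the 6 arrays were kept (27859 of 41174), named through their transcript accession in the RefSeq gene table (26690 of the 41174 probes had a symbol), and the kept probe with the highest mean stood for a gene. Genotypes were compared over 21058 genes and transcripts with limma 3.58.1 in R 4.3.3 (lmFit, eBayes, genotype alone), with Benjamini-Hochberg adjustment over all of them and a threshold of 0.05. No p was adjusted over the members alone and no set test was run. The fit was tested on simulated data with independent noise for each gene and no control array set apart. That simulation therefore does not bear on the gap between the control arrays. The number of arrays, 3 per genotype, limits the precision.

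The members and all gene lists were chosen with earlier results of these data known. Values on every array are given for members past the threshold, the 12 members with the smallest p and the 3 nearest to no difference; other members are given by difference, and in other lists up to 4 genes past the threshold or else the 2 with the smallest p. Further values for Cdk1, Kif11, Mki67, Maff, Mafk and marker genes were chosen after they were seen. Alternatives tried were quantile normalization, normexp with an offset of 50, scaling by the median or by E1A spike-ins, the value table, no filter or a stricter filter on dim probes, averaging the probes of a gene, replicate and slide blocks, fits within a slide, array weights, trend and robust eBayes, each array left out in turn and an adjusted p under 0.01.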

Additional observations from a re-analysis of the deposited data

How the results depend on the processing

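The members' median difference kept its direction under every alternative run, from 1.14 with normexp to 2.32 without control replicate 2, and 1.91 under spike-in scaling, which moved the median of all genes from -0.05 to 0.27 (without a filter on dim probes it was -0.15). Members past the threshold numbered 0 in all settings but array weights (7), the replicate block (1, Aurka) and the omission of control array 2; leaving out 1 array gave 0 to 21. With array weights the 7 were Aurka, Cdc20, Cdca3, Cdca8, Foxm1, Incenp and Kif20a, of which 5 were also called without control array 2. The count over all genes, 114 in the reported fit, was 6, 175 and 22 without control array 1, 2 or 3 and 3, 11 and 294 without sMaf CKO array 1, 2 or 3 (range 3 to 294), 74 with normexp, 22 with quantile normalization, 252 with median scaling, 13 with spike-in scaling, 1 without a filter on dim probes, 267 with probes above background on all 6 arrays, 340 with slide as a block, 196 within slide 1, 1141 with array weights, 309 with trend and robust eBayes and 3 at an adjusted p under 0.01; the cause was not tested. Higher and lower calls split 81 to 33 in the reported fit, 18 to 4 with quantile normalization, 9 to 4 with spike-in scaling and 171 to 81 with median scaling. The replicate block gave 291 genes. Deviations of same-numbered arrays correlated at 0.06, 0.17 and 0.42. The last, for replicate 3 on the second slide, was the highest of any pair across genotypes. Control array 2 correlated best with sMaf CKO array 1 (0.29). The samples are described as independent RNA samples, so a shared number was not treated as a pairing in the reported fit. The direction turned for Bub1 with the mean of its probes (0.77), for Cks2 within slide 1 (-0.11) and without sMaf CKO replicate 3 (range over single omissions -0.10 to 0.35), and for Anln without control replicate 3 (-0.032; range -0.032 to 1.17). Signal limits Cdc25c and Ttk, above background on 1 of 3 control arrays, and Kif2c, Kif11, Ndc80 and Anln, above it on 2; with normexp these differed by 0.64, 0.24, 0.70, 0.41, 0.25 and 0.15.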
